A study of Drosophila melanogaster with 42 samples.

Results

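The genes tailless (tll) and huckebein (hkb) were followed through every tested region of accessible chromatin whose midpoint lay inside either gene or within 10 kb of it. Of the 20935 regions that were tested against wild type, 7 met this rule, 3 at tll and 4 at hkb. Peaks called in each library over the same spans were used beside them.

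Both genes belong to the terminal system, which patterns the unsegmented ends of the fly embryo. The receptor tyrosine kinase Torso is activated only at the poles and signals through the Ras and MAP kinase cascade, which relieves repression by the DNA-binding protein Capicua. tll encodes an orphan nuclear receptor and hkb a zinc finger protein, and both act as transcription factors at the poles before gastrulation. Anterior expression of both genes also draws on the head morphogen Bicoid, and Zelda, a maternal pioneer factor, opens many early enhancers.

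Open chromatin was profiled in 42 libraries of whole embryos kept at 25 °C by ATAC-seq, in which the transposase Tn5 inserts sequencing adapters into accessible DNA. Wild-type embryos (Oregon-R, OreR), embryos labelled zld- and embryos labelled gd7 were collected in 4 windows, 1 to 1.5 h, 1.5 to 2 h, 2 to 2.5 h and 2.5 to 3 h after egg laying. Embryos labelled cic6 were collected in the windows of 2 to 2.5 h and 2.5 to 3 h. Each of the 14 groups had 3 libraries. The youngest embryos were pooled by 400, those of 1.5 to 2 h by 100 and the older ones by 40. The labels give no other allele, transgene or agent for any group. The submitters' names for the zld- data refer to RNAi and to depletion, while the sample labels say only zld-, so whether these embryos carry a mutation or a knockdown is not settled here. zld encodes Zelda and cic encodes Capicua. gd encodes a maternal serine protease that acts upstream of the Toll receptor, so the name gd7 refers to the dorsoventral axis and not to the terminal system. Each library pools many embryos, and a change in the share of nuclei that are open cannot be told apart from a change in openness per nucleus. Nothing in the labels says that replicate libraries came from separate cages, so p-values measure only the spread between these libraries.

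The peak lists held 6831 to 58137 peaks per library, and read numbers do not come with them, so the depth is unknown. The zld- lists of 1 to 1.5 h stood apart, with 21324, 41668 and 6831 peaks. The cic6 lists had narrower peaks than OreR lists of the same 2 windows, with median widths of 334 to 418 bp against 411 to 563 bp. As a check of the stage, genes active during the forming of the first cells (nullo, slam, bnk, Sry-alpha) had a peak in 39 to 41 of the 42 libraries. Genes of muscle, neurons and glia (Mhc, elav, repo) had one in 41 or 42, so a peak in a gene does not separate these stages. The peaks covered a median of 62.5% to 91.1% of the first set of genes and of 16.6% to 27.4% of the second.

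Each tested region is 2114 bp wide, and coordinates are those of the deposited files (dm6). The gene tll (CG1378) lies at 3R:30852315-30854400, is 2086 bp long, and no other gene lies within 10 kb. The region called tll_(+1), at 3R:30851030-30853143, spans the lower-coordinate end of tll and covers 829 bp of the gene, and the zld- table calls it tll_P3. The region tll_(+2), at 3R:30848778-30850891, is intergenic with its midpoint 2480.5 bp below the gene, and the zld- table calls it tll_TM. The third tll region, VT50152.1 at 3R:30844518-30846631, is intergenic with its midpoint 6740.5 bp below the gene, and the zld- table alone gives it a name.

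The gene hkb (CG9768) lies at 3R:4345015-4346646 and is 1632 bp long. The region hkb_(-2), at 3R:4346601-4348714, lies just beyond the upper-coordinate end and overlaps the gene by 46 bp, and the zld- table calls it hkb_ventral_element_plus_NR. The region hkb_(+6), at 3R:4340322-4342435, is intergenic with its midpoint 3636.5 bp below the gene. VT36302.1, at 3R:4353132-4355245, is intergenic on the far side, 7542.5 bp beyond the gene. A region with no enhancer name, at 3R:4336844-4338957, overlaps the neighbouring genes Skp2 and CG1103 and has its midpoint inside CG1103. The gd7 and cic6 tables class the 4 regions named after tll and hkb as anterior enhancers. Gene ends are given by coordinate because the gene table used carries no strand.

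In wild type, 6 of the 7 regions held a peak in all 12 libraries, and tll_(+2) held one in 1 of 3 libraries of the first window and in all later ones. By the submitters' names for the comparisons, the tested regions were taken at OreR peaks. Peaks in OreR thus follow in part from that choice, and sites open only in another genotype may be missing. Peaks lay over tll_(+1), hkb_(-2) and the unnamed hkb region in all 42 libraries of the study. In OreR the strongest peak in tll_(+1) exceeded 84.6% to 94.4% of the peaks of its own list in fold enrichment, which is the authors' value. The corresponding peak of hkb_(-2) exceeded 75.2% to 94.0%. For tll_(+2) the OreR libraries had 0, 0 and 334 bp under peaks at 1 to 1.5 h. They had 646, 752 and 830 bp at 1.5 to 2 h, 754, 765 and 892 bp at 2 to 2.5 h, and 732, 742 and 797 bp at 2.5 to 3 h. No library of the first window reached the lowest value of the later ones.

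Over the whole span of tll and 10 kb on either side, peaks in OreR covered 2947 ± 678 bp at 1 to 1.5 h, 4106 ± 369 bp at 1.5 to 2 h, 4213 ± 507 bp at 2 to 2.5 h and 4310 ± 95.5 bp at 2.5 to 3 h (SD, n = 3 each). The SD of these window means was 636.8 bp, with p = 0.0169 when the 12 libraries were permuted exactly over the windows and 0.0339 after Benjamini-Hochberg adjustment over both genes. This call was lost without any one replicate, with adjusted p of 0.0952 to 0.362, and when lists were cut to equal length, with adjusted p of 0.225. At hkb the means were 5639, 6142, 5780 and 6362 bp, and the windows did not differ beyond the spread of the libraries (SD of means 331.1 bp, exact permutation p = 0.48). Age and the number of pooled embryos change together between windows, and the 2 cannot be told apart.

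**Figure D1:**
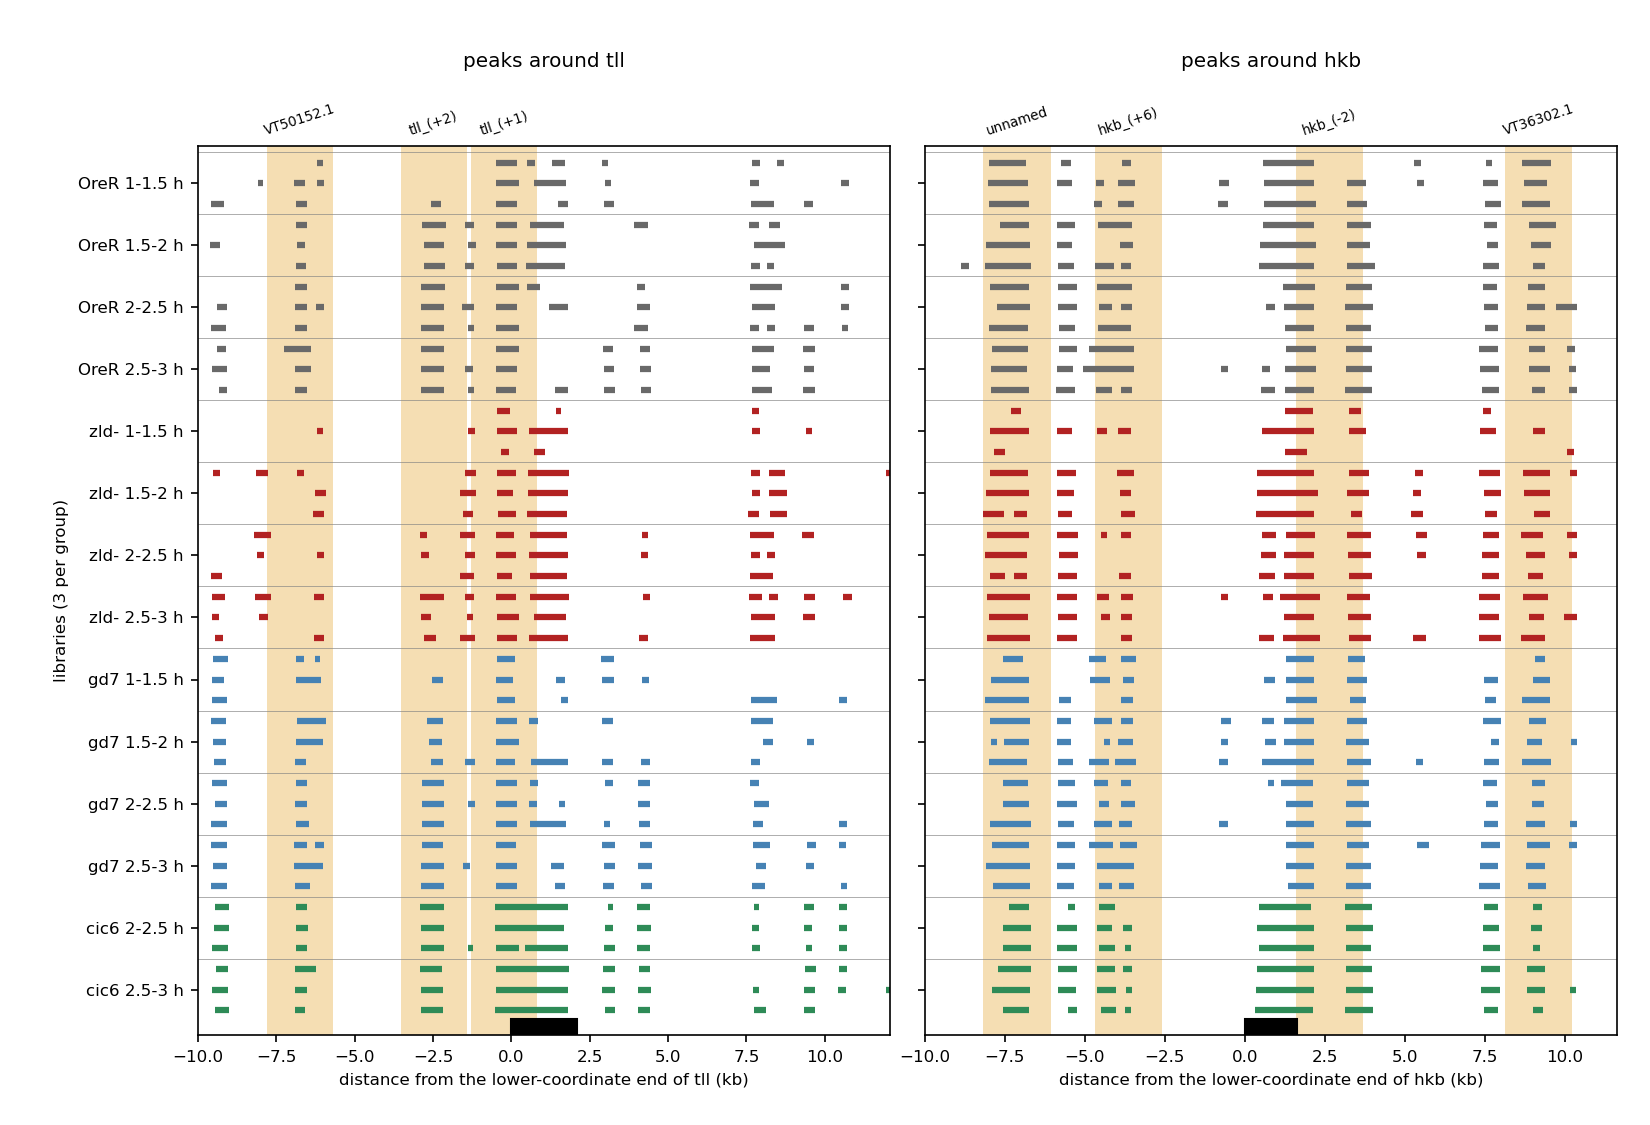
Peaks of all 42 libraries around tll (left) and hkb (right), as horizontal bars against the distance in kb from the lower-coordinate end of the gene, 3 rows per group. Shaded bands are the 7 tested regions and the black bar at the bottom is the gene. The bars over both gene bodies are long in OreR at 1.5 to 2 h, short in OreR at 2.5 to 3 h and long in all 6 cic6 libraries.

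Over the gene bodies, wild-type peaks covered less at 2 to 3 h than at 1.5 to 2 h. This measure was chosen after the peak maps had been seen, and it is given as a description. At tll, OreR peaks covered 497, 827 and 1246 bp of the 2086 bp gene at 1 to 1.5 h, and 1293, 1404 and 1419 bp at 1.5 to 2 h. At 2 to 2.5 h they covered 231, 658 and 805 bp, and at 2.5 to 3 h 173, 231 and 571 bp. All 6 libraries from 2 h on lay below all 3 of the window before, as in 19.6% of the 12949 protein-coding genes with a peak in these libraries. At hkb, OreR peaks covered 1029, 1041 and 1057 bp of the 1632 bp gene at 1 to 1.5 h, and 1056, 1147 and 1183 bp at 1.5 to 2 h. At 2 to 2.5 h they covered 367, 443 and 683 bp, and at 2.5 to 3 h 338, 613 and 807 bp. At hkb all 6 late libraries lay below all 6 early ones, as in 0.339% of 12991 genes, and at tll they did not. The OreR lists of 1.5 to 2 h were also the longest on average, with 54061 peaks against 50923 and 47027 in the later windows, and the part of this in the gene bodies was not tested.

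In zld- embryos accessibility was lower at both genes, the intergenic regions below the genes had less length under peaks, and the peaks next to the genes stayed. In the authors' deposited table the region-windows called lower at an adjusted p under 0.05 numbered 16 of 28, 8 of 12 at tll and 8 of 16 at hkb, and 0 were called higher. By window, 3, 4, 5 and 4 of the 7 regions were called lower. Of all regions in the authors' deposited table, 15.6%, 7.49%, 13.4% and 17.1% were called lower in the 4 windows, and 10.4%, 4.66%, 7.82% and 14.0% higher. The members' median log2 fold changes in the authors' deposited table were -0.54, -0.50, -0.57 and -0.57, against medians over all regions between -0.01 and 0.04.

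The strongest fall at tll was at tll_(+2), the intergenic enhancer, and it was not called in the first window. Its log2 fold change in the authors' deposited table was 0.01 (SE 0.19) at 1 to 1.5 h and -1.02 (SE 0.18, adjusted p 9.83e-07) at 1.5 to 2 h. It was -0.86 (adjusted p 3.26e-05) and -0.62 (adjusted p 0.00335) in the later windows of the authors' deposited table. The peaks gave the same order. zld- libraries had 0, 0 and 0 bp of tll_(+2) under peaks in the first window and 68, 110 and 212 bp in the second. They had 215, 330 and 454 bp at 2 to 2.5 h and 317, 612 and 832 bp at 2.5 to 3 h. At 1.5 to 2 h and at 2 to 2.5 h every zld- library lay below every OreR library, and at 2.5 to 3 h the ranges overlapped. The share of all tested regions with such a separation is not given here, for this or any other tested region. Over all windows the mean was 263 bp in zld- against 604 bp in OreR, a difference of -341.2 bp (exact permutation within windows, p = 0.0005, adjusted over the 21 pairs of region and genotype 0.00749; 11 of 12 libraries were below the OreR mean). Without the first window the difference was -417.8 bp (exact permutation p = 0.001, adjusted 0.0105). The zld- peaks that remained lay elsewhere in part. A peak covered the median OreR summit position of tll_(+2) in 10 of 12 OreR and in 2 of 12 zld- libraries. That position comes from the OreR peaks themselves, which favours OreR in this count, and gd7 libraries covered it in 10 of 12.

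At the farther tll region, VT50152.1, the deposited fold changes ran alike, but the lengths under peaks did not follow them in the first 2 windows. In the authors' deposited table its log2 fold change was -0.02 at 1 to 1.5 h and then -0.50, -0.65 and -0.57, all 3 called with adjusted p of 0.0119, 0.000197 and 0.000865. By window, the mean lengths under peaks were 67, 318, 122 and 271 bp in zld- and 370, 294, 459 and 580 bp in OreR. At 1.5 to 2 h the zld- mean was thus not below that of OreR. Over all windows, peaks covered 194 bp of the region in zld- against 426 bp in OreR on average (difference -231.6 bp, exact permutation p = 0.00251, adjusted 0.0176, with 10 of 12 libraries below the OreR mean). That call was lost without zld- replicate 3, to which the list of 6831 peaks belongs (adjusted p 0.0517), and without OreR replicate 2 (adjusted p 0.0525). The median OreR summit position of this region lay under a peak in 11 of 12 OreR and in 1 of 12 zld- libraries. It lay under one in 11 of 12 gd7 libraries, and here too the position was set by OreR.

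At tll_(+1), next to the gene, the fall was smaller. The log2 fold changes in the authors' deposited table were -0.15, -0.63 (adjusted p 0.0332), -0.57 (adjusted p 0.0413) and -0.48 (SE 0.22, adjusted p 0.0737), and the first and last were not called. The peaks showed no such fall: they covered 883 bp in zld- and 871 bp in OreR on average (exact permutation p = 0.875), and the OreR summit position lay under a peak in 12 of 12 libraries of both. Over the tll gene body, zld- libraries at 2 to 3 h were above OreR, with 1210 to 1406 bp in the first of these windows and 1243 to 1442 bp in the second. These ranges do not overlap those of OreR, 231 to 805 bp and 173 to 571 bp. Of 12848 protein-coding genes with a peak in these libraries, 1.75% had every zld- library above every OreR library in both windows, and tll ranked 51 by the difference of 888.7 bp. hkb was not among them, with zld- values of 770 to 912 bp and 392 to 908 bp.

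At hkb the regions hkb_(-2) and hkb_(+6) were each called lower in 3 windows. The region hkb_(-2), beside the gene, was at -0.55 (adjusted p 0.0634) in the first window of the authors' deposited table and was called lower in each later one, at -0.63, -0.79 and -0.70 (adjusted p 0.0499, 0.00424 and 0.00969). For the enhancer hkb_(+6) the authors' deposited table gave -0.79 (adjusted p 4.13e-05), -0.32 (adjusted p 0.214), -0.46 (adjusted p 0.0247) and -0.64 (adjusted p 0.000487). Peaks covered 0, 0 and 739 bp of hkb_(+6) in zld- at 1 to 1.5 h, and 339, 454 and 532 bp at 1.5 to 2 h. They covered 0, 380 and 523 bp at 2 to 2.5 h and 354, 616 and 771 bp at 2.5 to 3 h. In the last pair of windows every zld- library lay below every OreR library, whose lowest values were 747 and 855 bp. The mean was 392 bp in zld- against 863 bp in OreR (difference -470.2 bp, exact permutation p = 0.000713, adjusted 0.00749, with 11 of 12 libraries below the OreR mean), and -511.8 bp without the first window (exact permutation p = 0.001, adjusted 0.0105).

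The outer hkb regions were called lower in the first window alone. VT36302.1 was at -0.86 (SE 0.12, adjusted p 1.6e-11) in that window of the authors' deposited table and at -0.18, -0.08 and -0.23 later, none of which was called. The unnamed region was at -0.54 (adjusted p 0.00438) in the authors' deposited table and then at -0.08, -0.12 and -0.21, again not called. For VT36302.1 the difference between last and first window was itself called, at 0.64 (SE 0.16, adjusted p 0.00187 over all regions). Such a difference was called for 10.2% of all regions in zld-, and for the other 6 members it was not called. For the unnamed region it was 0.33 (adjusted p 0.402), so a fall limited to the first window is not shown there. At tll_(+2) the difference was -0.63 (Wald adjusted p 0.113) and at VT50152.1 -0.55 (Wald adjusted p 0.092). A fall limited to the later windows is thus not shown by the deposited values at these regions. With the running median over regions of like count subtracted, 14 values were called lower in zld-. The calls of tll_(+1) at 2 to 2.5 h, of the unnamed region at 1 to 1.5 h and of hkb_(-2) at 2.5 to 3 h were lost, and VT36302.1 at 2.5 to 3 h was gained, at -0.28. The difference between last and first window was then called at tll_(+2) as well as at VT36302.1, with -0.79 (Wald adjusted p 0.0329) at tll_(+2). The first window rests on the zld- libraries with the short lists, and their fold changes could not be recomputed without one of them.

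Over the full spans the zld- difference was -512 bp at tll (exact permutation p = 0.106, adjusted over 6 tests 0.17, 9 of 12 libraries below the OreR mean) and -752.8 bp at hkb (p = 0.145, same exact permutation test, adjusted 0.17, 7 of 12 below). Neither was larger than the spread between libraries, and both spans include the gene bodies. At hkb a call appeared when lists were cut to 6831 peaks, the length of the shortest zld- list, as given further below.

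**Figure D2:**
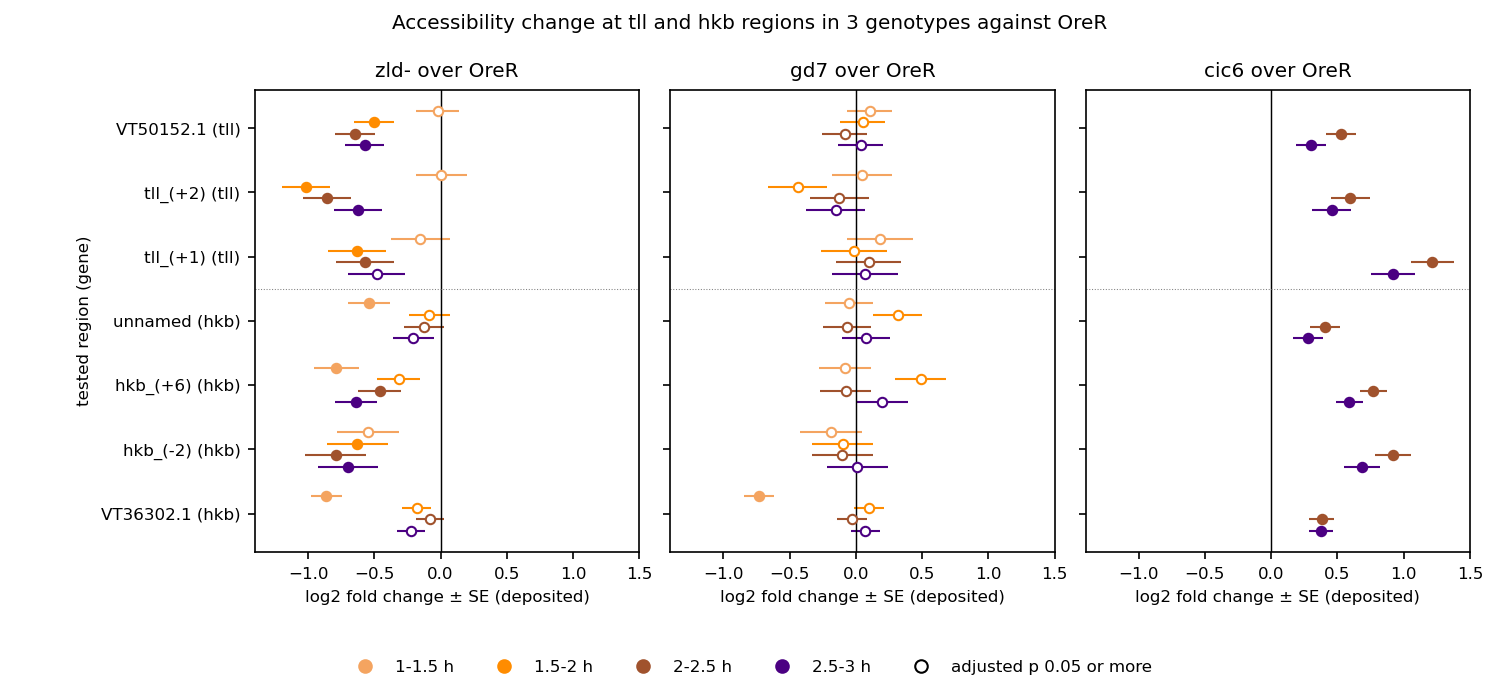
Deposited log2 fold change of zld-, gd7 and cic6 over OreR, with its SE as a bar, for the 7 regions (rows) in each window (colours); open circles have an adjusted p of 0.05 or more. The zld- values lie mostly below 0 (16 of 28 called lower), the gd7 values scatter around 0 apart from VT36302.1 in the first window, and all 14 cic6 values lie above 0.

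In gd7 embryos few differences from wild type were called, both at the tested regions of the terminal genes and among all regions. The authors' deposited table called 1 of 28 region-windows lower and 0 higher. Of all regions, the authors' deposited table called 4.01%, 7.47%, 3.45% and 8.19% lower in the 4 windows and 4.47%, 7.86%, 2.09% and 3.81% higher. A count of 1 among 28 is near these shares and does not set the terminal genes apart from other regions. Of these 28 values from the authors' deposited table, 14 were below 0 and 14 above, the range was -0.73 to 0.49, and 3 had an unadjusted p under 0.05. The 95% intervals of all 28 reached from -0.96 to 0.87, so smaller differences than these are not excluded. The regions of highest count in each locus, tll_(+1) and hkb_(-2), lay between -0.02 and 0.18 and between -0.19 and 0.01 in the authors' deposited table.

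The called value was VT36302.1 at 1 to 1.5 h, at -0.73 (SE 0.11, adjusted p 1.73e-08) in the authors' deposited table, followed by 0.10, -0.03 and 0.07. Its difference between last and first window was 0.80 (SE 0.16, adjusted p 0.000363), where 1.1% of all regions were called. The zld- and gd7 comparisons share the 3 OreR libraries of the first window. In that window peaks covered 733, 888 and 898 bp of VT36302.1 in OreR, 0, 176 and 403 bp in zld- and 337, 519 and 853 bp in gd7. The zld- values lay below all OreR values, and the gd7 values overlapped them. The zld- lists of this window held 21324, 41668 and 6831 peaks against 38663 to 42882 in OreR, and the part of this was not tested. At hkb_(+6) the gd7 libraries carried peaks in 12 of 12 libraries with a mean of 867 bp against 863 bp in OreR. At tll_(+2) the mean was 510 bp against 604 bp (difference -94.1 bp, exact permutation p = 0.0702, adjusted 0.134, 10 of 12 below the OreR mean). Without gd7 replicate 2 that difference was -129.2 bp with adjusted p of 0.0231, and without the first window -125.6 bp with adjusted p of 0.0254. In the second window the gd7 libraries had 435, 477 and 515 bp there, all below the 646 bp of the lowest OreR library. The log2 fold change of tll_(+2) in that window was -0.44 (adjusted p 0.144) in the authors' deposited table, and -0.81 (adjusted p 0.00525) once the running median over regions of like count was subtracted.

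Over the full spans gd7 was at -291 bp for tll (exact permutation p = 0.152, adjusted 0.17) and -611.2 bp for hkb (p = 0.0468, same exact permutation test, adjusted 0.14, 9 of 12 below). Over the gene bodies, gd7 peaks at 1 to 1.5 h covered 114, 324 and 364 bp of tll and 340, 340 and 679 bp of hkb. OreR had 497 to 1246 bp and 1029 to 1057 bp, so neither gene had any overlap. In each later window the ranges overlapped at both genes. The share of all genes with such a separation is not given here, and the measure was chosen after the maps had been seen. The gd7 lists of the first window were also shorter on average than those of OreR, with 35696 against 41069 peaks and ranges that overlap. The part of this in these differences was not tested.

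In cic6 embryos all 7 regions were higher in both windows, and the largest deposited log2 fold changes lay next to the genes. At hkb this order did not hold against regions of like count, as given below. The authors' deposited table called 14 of 14 region-windows higher, against 26.2% and 14.0% of all regions at 2 to 2.5 h and 2.5 to 3 h. It called 22.8% and 13.7% of all regions lower. The members' medians in the authors' deposited table were 0.60 and 0.46 on the log2 scale, against -0.02 over all regions in each window. The largest rise was at tll_(+1), the region over the lower-coordinate end of the gene, at 1.21 (SE 0.16, adjusted p 3.57e-12, fold 2.32) and 0.92 (SE 0.16, adjusted p 3.81e-07, fold 1.89) in the authors' deposited table. It ranked 56 and 98 from the top of 20935 regions. Second was hkb_(-2), at 0.92 (SE 0.14, adjusted p 3.88e-10) and 0.69 (adjusted p 6.89e-06) in the authors' deposited table, followed by hkb_(+6) at 0.77 (SE 0.10, adjusted p 2.69e-12) and 0.59 (adjusted p 1.9e-07).

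The other regions rose less. In the authors' deposited table tll_(+2) was at 0.60 and 0.46, VT50152.1 at 0.52 and 0.30, VT36302.1 at 0.38 and 0.37, and the unnamed region at 0.41 and 0.28. No difference between these 2 windows was called for any member, and 0.148% of all regions were called.

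Regions with many reads were higher in cic6 across the genome, and the terminal regions are among those with the highest counts. When all regions of the authors' deposited table were split into 5 equal groups by mean normalized count, the median log2 fold change at 2 to 2.5 h was -0.28 in the lowest group and 0.41 in the highest. At 2.5 to 3 h these medians of the authors' deposited table were -0.17 and 0.16. tll_(+1) had a mean normalized count of 7253 and hkb_(-2) one of 8648 in the authors' deposited table. At the counts of the 7 members the running median was 0.21 to 0.61 in the first of these windows and 0.08 to 0.27 in the second. With it subtracted, 6 of 14 remained called higher. These were tll_(+1) in both windows, at 0.61 (adjusted p 0.00157) and 0.65 (adjusted p 0.000699), and hkb_(+6) in both, at 0.37 (adjusted p 0.00279) and 0.44 (adjusted p 0.000177). The others were hkb_(-2) at 0.42 (adjusted p 0.0123) and VT36302.1 at 0.30 (adjusted p 0.00844), both at 2.5 to 3 h. At 2 to 2.5 h hkb_(-2) was at 0.33 (adjusted p 0.0594) and was not called. In both windows hkb_(+6) then stood above hkb_(-2), the region beside the gene. The unnamed region, over Skp2 and CG1103, turned to -0.068 (adjusted p 0.721) at 2 to 2.5 h.

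**Figure D3:**
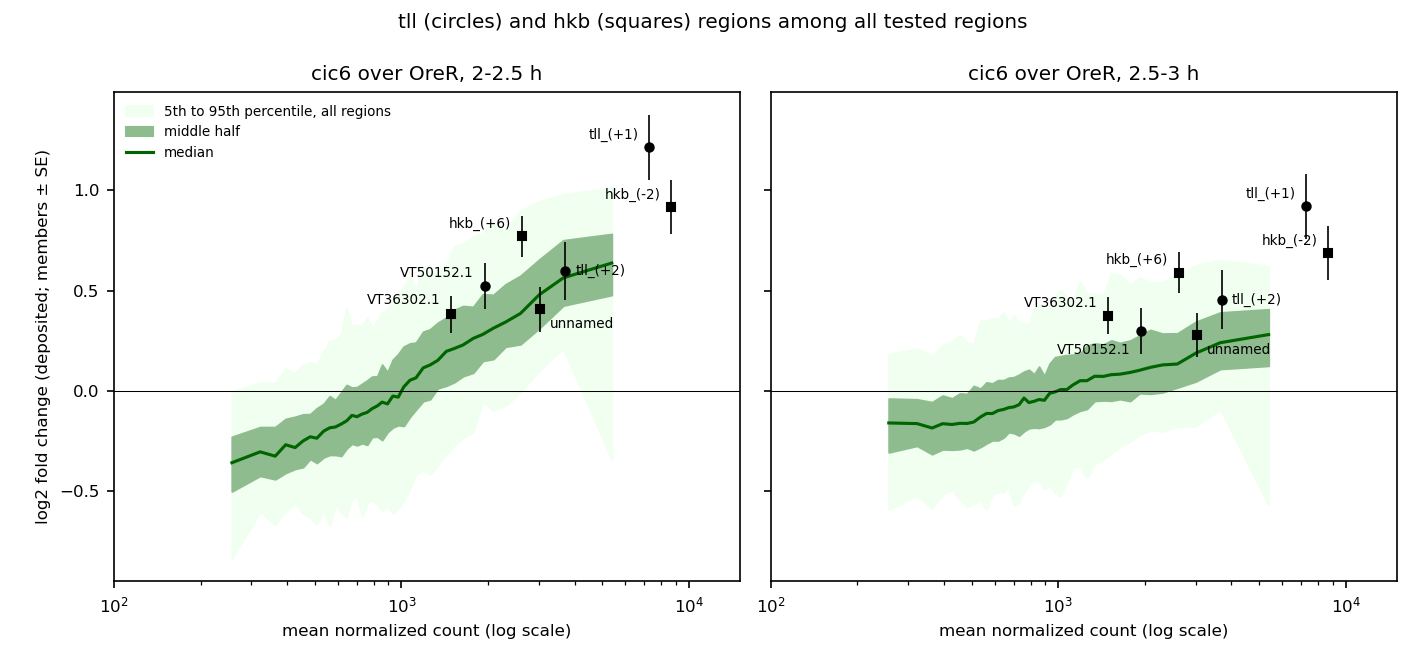
Deposited log2 fold change of cic6 over OreR against the mean normalized count (log axis) in both windows, with the median and percentile bands of all regions in 40 groups of like count, and the tll (circles) and hkb (squares) regions with their SE. tll_(+1), at 1.21 and 0.92, and hkb_(+6), at 0.77 and 0.59, stand above the median at their counts, and the unnamed region, at 0.41 and 0.28, lies near it.

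The gain at tll_(+1) was also seen in the length under peaks, but not in the standing of its strongest peak within its list. At 2 to 2.5 h the cic6 libraries had 1211, 1339 and 1341 bp against 747, 807 and 1074 bp in OreR. At 2.5 to 3 h they had 1327, 1329 and 1339 bp against 723, 745 and 747 bp. All cic6 libraries lay above all OreR libraries, and the difference was 507.2 bp (exact permutation p = 0.005, the smallest that this design can give, adjusted 0.021, above the OreR mean in 6 of 6). Without any 1 replicate the difference was 477.1 to 552.8 bp, and the exact permutation p was 0.01, the smallest such a check can give. The adjusted p also depends on the other regions and was 0.035 to 0.0525, with 0.0525 without OreR replicate 2 or cic6 replicate 1. The strongest peak of tll_(+1) did not stand higher in its list in cic6. At 2.5 to 3 h it exceeded 78.13% to 81.07% of the list, against 84.55% to 90.63% in OreR. At 2 to 2.5 h no cic6 library reached the lowest OreR value, 90.74%. Its fold enrichment overlapped, at 3.85 to 5.26 in cic6 and 3.61 to 4.76 in OreR of these windows. Why the standing was lower was not tested. Across the whole tll span cic6 peaks covered 5336.5 bp against 4261.5 bp, a difference of 1075 bp (exact permutation p = 0.005, adjusted 0.03, 6 of 6 above). With 1 replicate left out the smallest adjusted p over the 6 tests is 0.06, so that check cannot keep the call, and the difference stayed between 989.5 and 1189.5 bp.

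The added length lay over the genes. In cic6 the peaks covered 1609, 1694 and 1801 bp of tll at 2 to 2.5 h and 1801, 1811 and 1844 bp at 2.5 to 3 h, where OreR had at most 805 bp. They covered 1175, 1191 and 1262 bp of hkb at 2 to 2.5 h and 1262, 1273 and 1305 bp at 2.5 to 3 h, where OreR had at most 807 bp. Neither gene had any overlap between the groups. The tll values of cic6 also lay above all OreR libraries of the earlier windows, and those of hkb, from 1175 to 1305 bp, compare with 1056 to 1183 bp in OreR at 1.5 to 2 h. Of 12748 protein-coding genes with a peak in these libraries, 66 (0.518%) had every cic6 library above every OreR library in both windows, and 6.77% had every one below. By the gain in covered length tll, at 1315.2 bp, ranked 1 among these genes and hkb, at 702.8 bp, ranked 8, while the median gene was at -129.3 bp. As a share of the gene, the gain was 63.0% at tll and 43.1% at hkb, and ranked 4 and 9. This measure was chosen after the maps had been seen.

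Elsewhere around hkb the length under peaks was not higher in cic6. hkb_(-2) had 1103 bp under peaks against 1141 bp (difference -38.7 bp, exact permutation p = 0.005, adjusted 0.021, 6 of 6 below), while its deposited fold change rose. This call was lost without OreR replicate 1 or 2 or cic6 replicate 1, with adjusted p of 0.0788, 0.07 and 0.104. At hkb_(+6) cic6 libraries had 489, 676 and 790 bp and then 658, 814 and 859 bp, with a difference from OreR of -315.8 bp (exact permutation p = 0.025, adjusted 0.0583, 6 of 6 below). Over the full hkb span the difference was -464.5 bp (exact permutation p = 0.17, adjusted 0.17, 5 of 6 below). cic6 lists had narrower peaks on average, as given above, and the part of this in the shorter lengths was not tested.

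**Figure D4:**
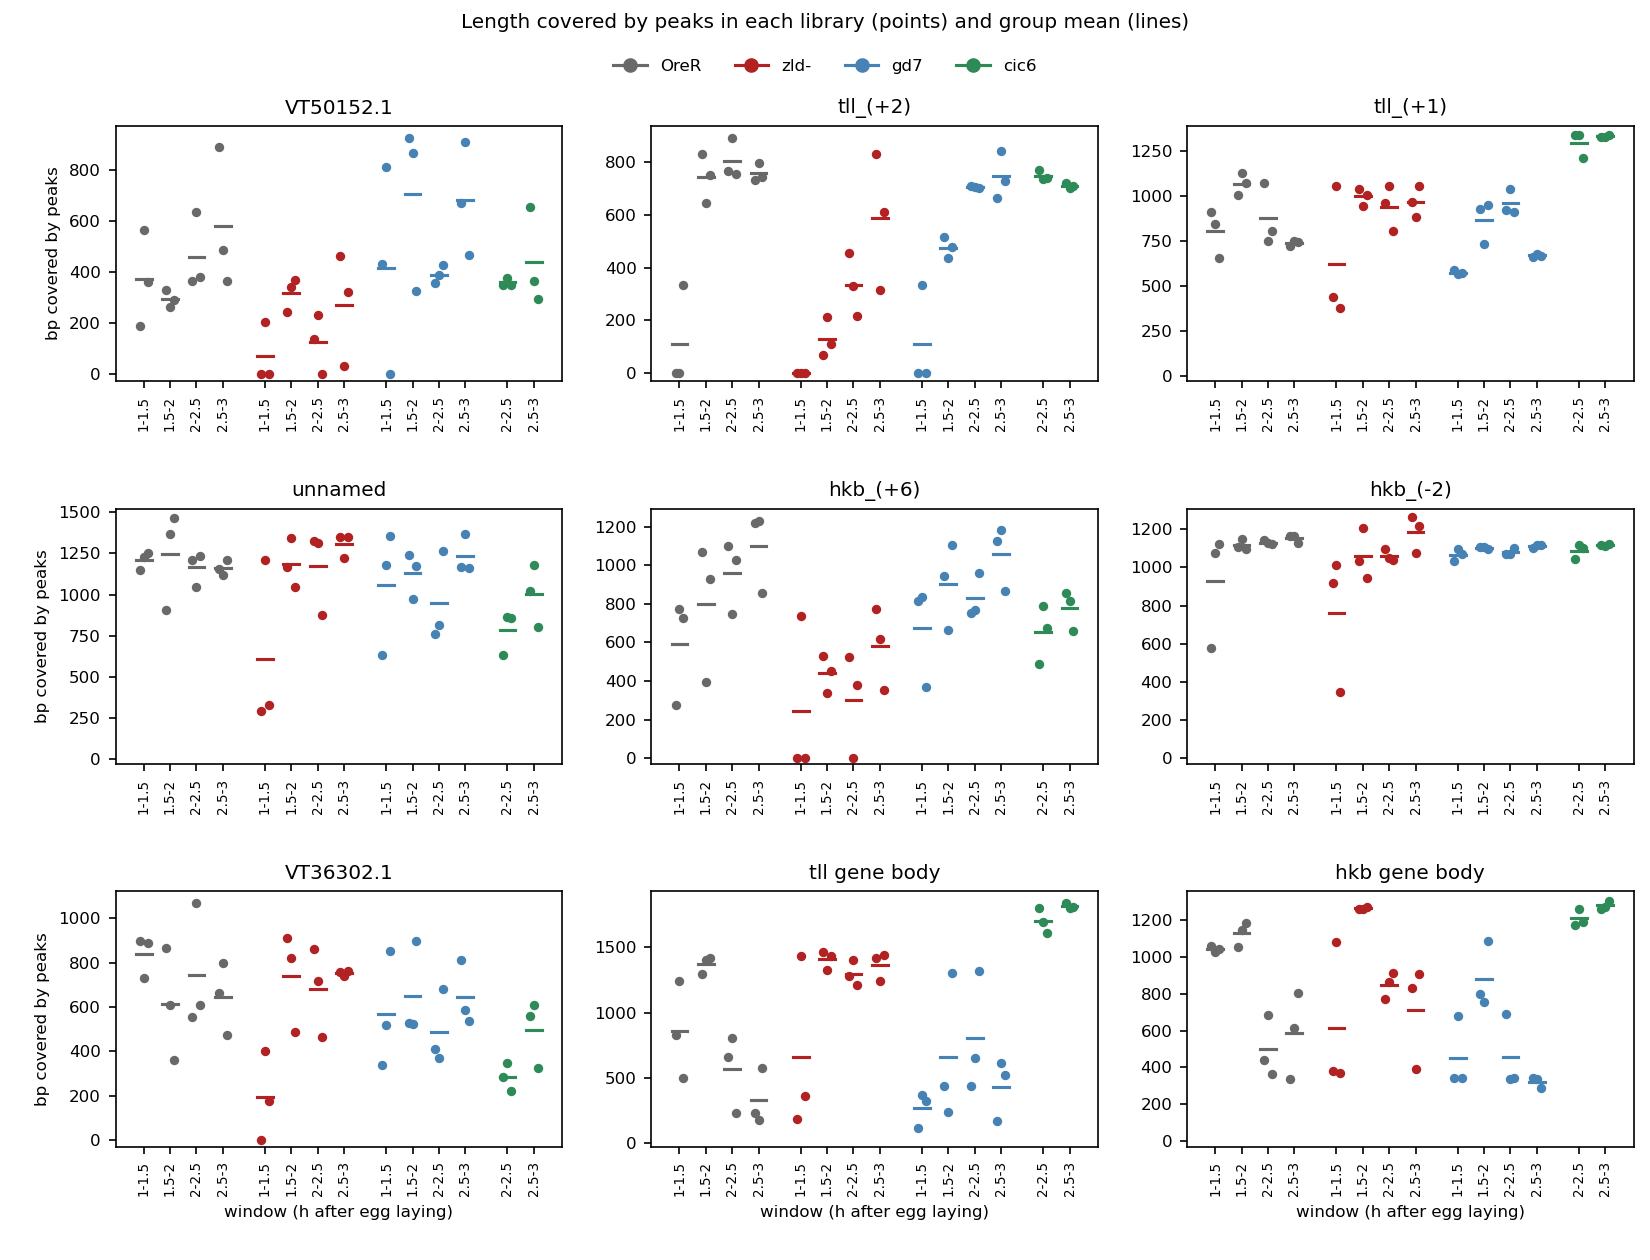
Length under peaks in bp (vertical axis, from 0) in each library (points) with the group mean (lines), for the 7 regions and both gene bodies, by window in h after egg laying and genotype (colours). tll_(+2) and hkb_(+6) are low in zld-, and both gene bodies are high in cic6, at 1609 to 1844 bp for tll and 1175 to 1305 bp for hkb.

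Outside the tested regions, peaks merged over all libraries gave 8 intervals at tll and 6 at hkb. The interval at 3R:30855173-30855619, beyond the upper-coordinate end of tll, held a peak at 2 to 3 h in 3 of 6 OreR, 0 of 6 zld-, 5 of 6 gd7 and 6 of 6 cic6 libraries. At 3R:30856229-30856802 the counts in these windows were 6, 4, 6 and 6 of 6, the same in cic6 as in OreR. Farther out, at 3R:30859861-30861116, they were 6, 6, 6 and 5 of 6. At hkb, 3R:4350223-4350762 held a peak at 2 to 3 h in 0 of 6 OreR, 3 of 6 zld-, 1 of 6 gd7 and 0 of 6 cic6 libraries. Next to VT36302.1, 3R:4352332-4353013 was held by 40 of the 42 libraries. Fold changes of these intervals were not used here.

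The 4 regions classed as anterior enhancers were set beside the 14 other regions with that class in the gd7 and cic6 tables. By the authors' deposited table, 10 of these 14 were called higher in cic6 at 2 to 2.5 h, and 5 in the window after it, with medians of 0.53 and 0.24 and a highest value of 1.01 in the first window. The shares over all regions were 26.2% and 14.0%, and with the running median over like counts subtracted the medians of the 14 were 0.19 and 0.15. In zld- the authors' deposited table called 3, 6, 7 and 7 of the 14 lower and 0 higher, where 15.6%, 7.49%, 13.4% and 17.1% of all regions were called lower. No test of a difference from tll and hkb was made.

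Over the 10 deposited comparisons, the regions most like tll_(+1) outside both loci were 1 over CG6136 (root mean square difference 0.20), 1 named hb_(-2)_broad by the gap gene hunchback (0.20) and 1 named doc2 (0.20). The regions most like hkb_(-2) were hb_(+0)_narrow at hunchback (0.17), 1 whose nearest gene is CG16898 (0.17) and VT29398.1 in CG44837 (0.17). The differences are in log2 units, and the comparisons share OreR libraries.

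Genes around tll and hkb in the terminal network were counted by their regions within 10 kb. The shares of all regions to set beside these counts are, in zld-, 15.6%, 7.49%, 13.4% and 17.1% lower and 10.4%, 4.66%, 7.82% and 14.0% higher, and in cic6 26.2% and 14.0% higher and 22.8% and 13.7% lower. Of 31 regions of 8 genes that tll or hkb act on, among them the gap genes Kr, kni, gt and hb and the hindgut gene byn, the authors' deposited table called 12, 9, 12 and 14 lower in zld- and 0, 0, 1 and 1 higher. In cic6 it called 19 and 15 of them higher and 1 and 3 lower, and their medians in the authors' deposited table were 0.47 and 0.24, or 0.07 and 0.10 with the running median over like counts subtracted. Of 7 regions of the other Capicua targets ind and wntD, a homeobox gene and a Wnt family gene, the authors' deposited table called 4, 2, 3 and 6 lower in zld- and 3 and 1 higher in cic6. The largest falls in zld- were at wntD, with -2.32 (SE 0.17), and at ind, with -1.89 (SE 0.27), in the authors' deposited table. The largest rises in cic6 were at ind, with 0.94 and 0.92 in the authors' deposited table, or 0.39 and 0.31 with the running median subtracted.

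The 85 regions of 15 genes of the Torso pathway itself, from receptor to kinases and Capicua, held calls in both directions. In zld- the authors' deposited table called 9, 2, 7 and 14 of them higher and 16, 2, 8 and 6 lower, and in cic6 31 and 12 higher and 10 and 10 lower. Near the shares of all regions given above were the counts of both directions in the first zld- window and in the later cic6 window. So were the rises in zld- from 2 h on. Whether the other counts differ from those shares was not tested. The largest rises in zld- within the lists were at rl, the MAP kinase gene, with 0.69, and at ttk, with 0.59, in the authors' deposited table. The largest falls in cic6 were at cic itself, with -0.93 and -0.89 in the authors' deposited table, and the largest falls in gd7 were at the same 2 cic regions, at -1.62 and -0.88. In gd7 the largest rises in the authors' deposited table were at dl, which encodes Dorsal, with 1.37, and at fs(1)N with 1.07. Of 26 regions of 5 regulators of tll or hkb (bcd, zld, Trl, ttk, dl), the authors' deposited table called 5, 1, 2 and 3 lower and 2, 0, 1 and 2 higher in zld-, and 12 and 2 higher and 6 and 3 lower in cic6.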

How the data were processed

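Groups and replicate numbers come from the sample titles. Members and gene lists were chosen with earlier results of these data known. Per the submitters' processing notes, Bowtie2 2.3.5.1, Picard 2.23.8, MACS2 2.2.7.1 and DESeq2 were used with dm6. Their settings, and whether reads were shifted to the Tn5 cut, are not stated in the labels.

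Each deposited peak list comes from 1 library and gives the authors' score, fold enrichment (a ratio) and −log10 p and −log10 q values. Each of the 3 deposited tables gives the authors' mean normalized count (the mean signal over libraries), log2 fold change with its standard error, test statistic (a score), p-value and adjusted p-value. They hold no counts per library, so the planned edgeR fit was not run.

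The deposited adjusted p-values, under 0.05, were the calls; in gd7 20928 regions had one. Differences between windows used the Wald ratio of the deposited values, adjusted over all regions. The running median took 1001 regions of like mean normalized count, shrinking to 101 at the ends. Covered length is the bp under peaks, with genotype labels exchanged within windows in a two-sided exact permutation test. Every region by the rule and, over the gene lists together, the 2 largest called rises and falls per genotype are named. A replicate number did not pair libraries. Scripts were tested on simulated data (Python 3.11.15, NumPy 2.4.6, SciPy 1.17.1). Gene names came from a RefSeq Release 6 gene table, and all 30 list genes were found, fs(1)ph as fs(1)M3 and phl as Raf. Sequences and motifs were not analysed here.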

Additional observations from a re-analysis of the deposited data

Results flagged for a closer look

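The log2 fold change of VT36302.1, beyond hkb, differed between the last and the first window in zld- by 0.64 and in gd7 by 0.80, both called in a test of the difference itself over all regions. Both comparisons share the OreR libraries of the first window.

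Outside the tested regions, a peak beyond the upper-coordinate end of tll, at 3R:30855173-30855619, was present in 6 of 6 cic6 libraries and in 3 of 6 OreR libraries of the same windows. No test was made.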

How the results depend on the processing

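Centring on the median of all regions changed no call of the 70 region-windows. Subtracting the running median gave 14 zld- calls, with 3 lost and 1 gained, gave 2 gd7 calls, and left 6 of 14 cic6 calls, with the unnamed hkb region turning to -0.068 at 2 to 2.5 h. The subtraction also gave a called difference between the last and the first zld- window at tll_(+2), at -0.79 (Wald adjusted p 0.0329). Requiring a log2 size of at least 1 left 1, 0 and 1 calls in zld-, gd7 and cic6. Within 5 kb of the genes lie only the regions named after tll and hkb. There all 8 cic6 region-windows were called, and 11 calls remained in zld-. In gd7 there were 0, as its called region, VT36302.1, lies farther out. For the length under peaks, lists cut to equal length gave -896.9 bp at hkb in zld- (adjusted exact permutation p = 0.0239) and an SD of 555.5 bp between OreR windows at tll (adjusted p 0.225). The equal length was 6831 peaks for zld-, that of its shortest list, and 38663 for the OreR windows. The zld- value thus rests on a small part of most lists. As a share of the whole list, in bp per 1000000 bp covered, the SD between OreR windows was 9.5 at tll (adjusted p 0.31) and 37.8 at hkb (adjusted p 0.00416).

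The replicate numbers did not pair libraries, with correlations of deviations of -0.127 to 0.194. With the replicate block, tll in cic6 stayed at 1075 bp with adjusted p of 0.0938, and the SD between OreR windows at tll stayed at 636.8 bp with adjusted p of 0.122. Of the other 6 spans compared, none changed its call under the block.

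Leaving out each replicate in turn gave 989.5 to 1189.5 bp at tll in cic6, -702.5 to -284.9 bp at tll in zld- and -1029.7 to -391.5 bp at hkb in zld-. It gave -407.4 to -171.8 bp at tll and -834.8 to -466.1 bp at hkb in gd7, and -731.3 to -238.7 bp at hkb in cic6. The SD between OreR windows was 482.5 to 805.7 bp at tll and 263.9 to 487 bp at hkb. Among single regions in cic6, VT36302.1 was called without OreR replicate 3 (-380.8 bp, adjusted p 0.035) and the unnamed region without cic6 replicate 2 (-333.2 bp, adjusted p 0.035). Over the spans, a call appeared at tll in zld- without zld- replicate 1 (adjusted p 0.0294) and at hkb in gd7 without gd7 replicate 3 (adjusted p 0.0246). For hkb_(-2) in gd7 the range without 1 replicate was -32.9 to 33.0 bp, with the sign turned and a call gained without OreR replicate 1 (adjusted p 0.0259), and likewise without the first window (-34.4 bp, adjusted p 0.021).

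With the gene body alone, chosen after seeing the data, the difference turned to 403.5 bp at tll in zld- (adjusted p 0.0382) and to 702.8 bp at hkb in cic6 (adjusted p 0.01). hkb in gd7 was at -285.6 bp (adjusted p 0.00847), and the SD between OreR windows at hkb was 317.9 bp (adjusted p 0.00883). As the maps of these same libraries led to the gene body measure, its p-values describe the differences and do not test them. Read depth is unknown, so a missing peak does not show closed chromatin, and where a result changed with the setting the cause was not tested.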
